A study of Bos taurus with 9 samples.

Results

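The urea cycle and ammonia handling genes described here are 10 genes chosen by name, *CPS1*, *OTC*, *ASS1*, *ASL*, *ARG1*, *NAGS*, *SLC25A15*, *GLS2*, *GLUD1* and *GLUL*, out of 28786 genes listed in the read count file. Their levels were measured in liver biopsies of 9 lactating Holstein cows, with 3 cows and 3 libraries in each of 3 groups and 1 library per cow. The cows were drawn at random from a larger experiment. All cows were first acclimated in thermoneutrality, and the groups then stayed in thermoneutrality (TN), were exposed to heat stress with hot days and cooler nights (HS), or stayed in thermoneutrality but were given only as much feed as the heat-stressed cows ate, called pair-fed (PF). Cow age was not given in the sources used here. The HS and TN groups therefore differ in both heat and intake, the HS and PF groups in heat at a matched intake, and the PF and TN groups in intake. The paper states that the cows were balanced by milk yield, lactation and days carrying a calf when they were assigned to the groups. The average days in milk of the cows used here were lowest in TN and highest in PF cows. A part of this difference in the values cannot be told apart from that of treatment.

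The urea cycle turns toxic ammonia into urea, and it runs mainly in the hepatocytes around the portal veins. Inside mitochondria, ammonia enters through carbamoyl phosphate synthetase (*CPS1*), which works only in the presence of the *N*-acetylglutamate made by *NAGS*, and ornithine transcarbamylase (*OTC*) then forms citrulline. Citrulline leaves and ornithine enters through the carrier *SLC25A15*, and in the cytosol *ASS1* and *ASL* make arginine, which *ARG1* splits into urea and ornithine. Liver glutaminase (*GLS2*) and glutamate dehydrogenase (*GLUD1*) release ammonia from glutamine and glutamate, while glutamine synthetase (*GLUL*), found in hepatocytes next to the central veins, takes up the ammonia that the cycle has missed. In ruminants the liver receives much ammonia from the rumen and part of the urea returns to the gut.

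The total read count per library ranged from 16874444 to 22557047, and the lowest count of a member in any cow was 861, for *GLS2* in PF replicate 2, where the counting error alone is 3.41%. Counting error was thus small beside the spread between cows. The 10 genes together took between 0.471% (95% CI 0.468 to 0.474, Wilson) of all counts in TN replicate 1 and 0.858% (95% CI 0.854 to 0.863) in HS replicate 3, where the interval covers counting error only. TN replicate 1 stood apart from the other 8 libraries. Its summed level of 8 hepatocyte markers was 17227 CPM, against 61593 to 134447 CPM in the others, and 22.2% of its counts fell on the 13 mitochondrial protein-coding genes, against 3.84% to 18.3%. All 8 hepatocyte markers had more than 3 counts in every cow.

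None of the 10 genes was a differentially expressed gene (DEG, FDR under 0.1 and fold change over 1.5, edgeR) in any comparison, and the number of members whose groups did not overlap was no higher than the share of all genes. DESeq2, which the study used, called *GLS2* in HS vs. PF at the same thresholds (FDR 0.0200). With edgeR 1, 2 and 2 members had an unadjusted p under 0.05 in HS vs. TN, HS vs. PF and PF vs. TN. Of all genes 9.36%, 5.32% and 6.88% did. *ASL* was highest in the TN group, where all 3 cows were above every PF and every HS cow. *GLS2* was lowest in the PF group, where all 3 cows were below every HS cow. *CPS1* and *OTC* had their highest means in the HS group and their lowest in the TN group, but the cows overlapped. *GLUL* had nearly the same mean in the 3 groups.

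**Figure D1:**
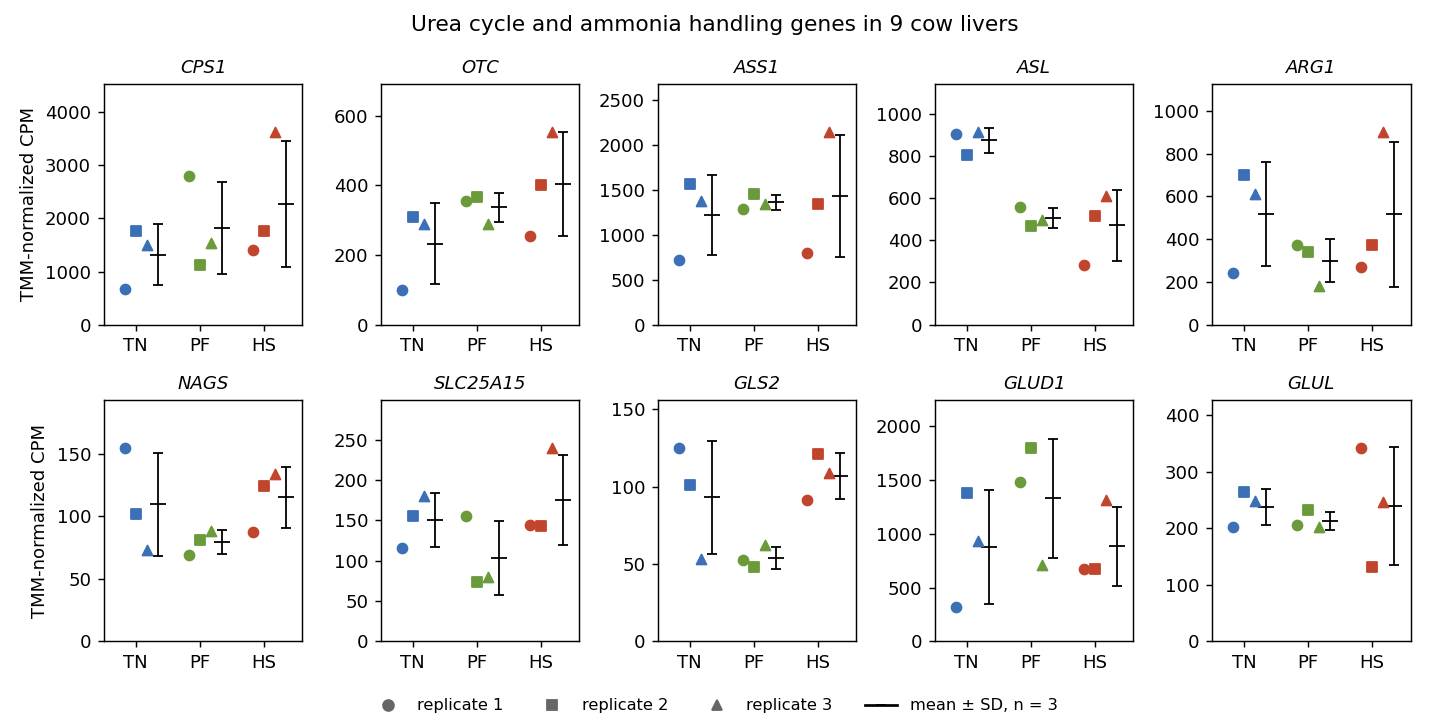
TMM-normalized CPM (y axis, linear from 0, scaled per panel) of the 10 genes in the TN, PF and HS groups; each point is 1 cow, the symbol gives its replicate number, and the black bar is the mean ± SD of 3 cows. In the *ASL* panel the TN cows sit between 806 and 913 CPM and all other cows at or below 609 CPM, and in the *GLS2* panel the PF cows sit between 48.1 and 62.0 CPM, below all HS cows.

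Between the HS and TN groups, 0 of the 10 members were DEGs by edgeR and 0 by DESeq2, where edgeR called 0.0892% of the 14582 genes tested and DESeq2 1.75% of 15414. With edgeR 1 member, *ASL*, had an unadjusted p under 0.05, where 9.36% of all genes did, and it was also the only member whose groups did not overlap, where 16.1% of all genes did not and 7.7% were lower in every HS cow. A single member of 10 is close to these shares. DESeq2 gave 3 members an unadjusted p under 0.05, where 9.82% of all genes had one. The median log2 fold change of the 10 genes was 0.11, and that of all genes was -0.01.

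Between the HS and PF groups, 0 members were DEGs by edgeR (0.0276% of 14510 genes were called), and DESeq2, which called 0.771% of 15815 genes, called 1, *GLS2*. With edgeR 2 members, *GLS2* and *SLC25A15*, had an unadjusted p under 0.05, where 5.32% of all genes did, and both were higher in the HS group. *GLS2* was the only member whose groups did not overlap, where 10.5% of all genes did not and 5.95% were higher in every HS cow. DESeq2 gave 4 members an unadjusted p under 0.05, where 5.7% of all genes had one. The median log2 fold change of the 10 genes was 0.29, and that of all genes was 0.01.

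Between the PF and TN groups, 0 members were DEGs by edgeR (0% of 14580 genes were called) and 0 by DESeq2 (0.555% of 16411). With edgeR 2 members, *ASL* and *GLS2*, had an unadjusted p under 0.05, where 6.88% of all genes did, and both were lower in the PF group. *ASL* was the only member whose groups did not overlap, where 13.2% of all genes did not and 6.36% were lower in every PF cow. Without TN replicate 1 the groups also did not overlap in *ARG1* and *GLUL*, where 19.7% of all genes did not in the same 5 libraries. In HS vs. TN that share was 23.2%, and *ASL* was still the only such member. DESeq2 gave 3 members an unadjusted p under 0.05 in PF vs. TN, where 7.76% of all genes had one. The median log2 fold change of the 10 genes was -0.32, and that of all genes was -0.01. In the test of all groups together, no member passed an FDR of 0.1 with edgeR or DESeq2, where edgeR called 0.0464% of 15073 genes and DESeq2 1.89% of 15387. The unadjusted p of edgeR was under 0.05 for *GLS2* (FDR 0.552) and *ASL* (FDR 0.596), and for 7.86% of all genes.

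**Figure D2:**
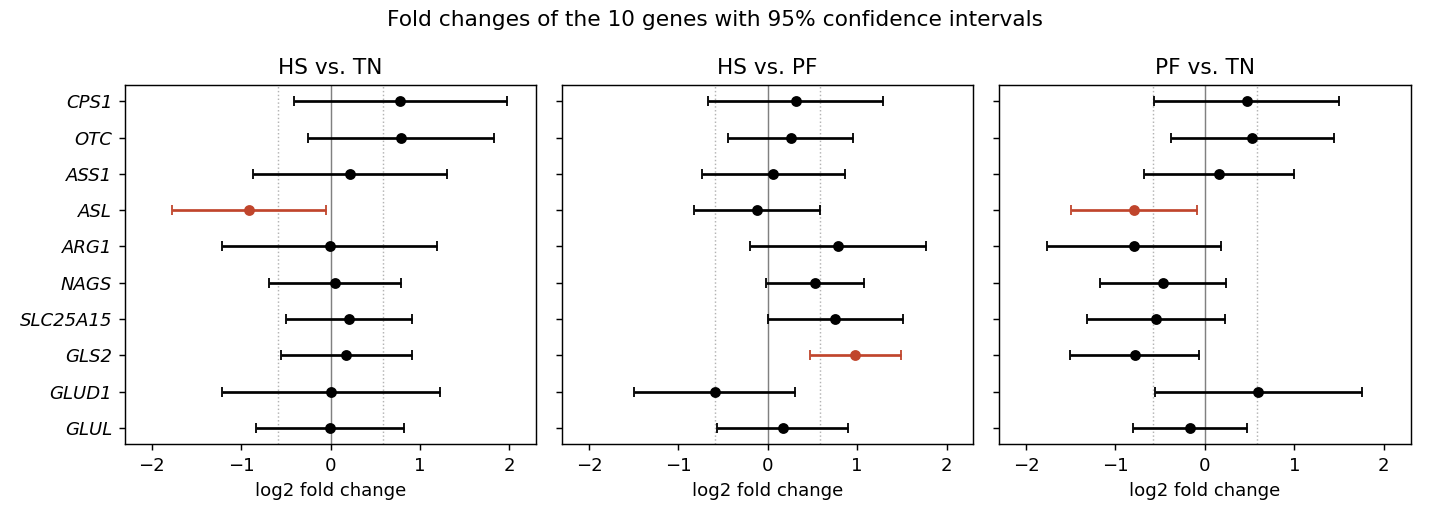
Log2 fold change (x axis) of each of the 10 genes in the 3 comparisons, with the 95% confidence interval of the edgeR fit; dotted lines mark a fold change of 1.5 in either direction, and red marks genes whose 2 groups did not overlap. *ASL* is red on the lower side in both comparisons with the TN group, at -0.91 and -0.79, and *GLS2* on the higher side in HS vs. PF, at 0.98.

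The mitochondrial steps of the cycle had higher HS than TN means in all 4 genes, with wide spread between cows and unequal size. The log2 fold change was 0.78 for *CPS1* and 0.79 for *OTC*, but 0.05 for *NAGS* and 0.21 for *SLC25A15*. With 1 cow left out, the last 2 fell as low as -0.17 and -0.083. The 8 hepatocyte markers also had mostly higher means. Their median log2 fold change was 0.76 in HS vs. TN, with 7 of 8 higher, and 0.77 in PF vs. TN, with 8 of 8 higher, although 0 had an unadjusted p under 0.05 and 0 were DEGs by edgeR in either comparison. Their part in the values of the cycle genes was not tested. *CPS1*, which commits ammonia to the cycle, had 672, 1771 and 1502 CPM in TN replicates 1 to 3, 2798, 1124 and 1535 CPM in the PF replicates and 1409, 1772 and 3630 CPM in the HS replicates. TN replicate 1 was the lowest of the 9 cows and HS replicate 3 the highest, and the groups overlapped in all 3 comparisons. The means were 1315 ± 573, 1819 ± 872 and 2270 ± 1192 CPM (SD, n = 3). Its log2 fold change was 0.78 (SE 0.53, FDR 0.632) in HS vs. TN, 0.47 (SE 0.47, FDR 0.799) in PF vs. TN and 0.31 (SE 0.44, FDR 1.00) in HS vs. PF. The 95% confidence interval in HS vs. TN ran from -0.41 to 1.97, and without HS replicate 3 the log2 fold change was 0.26.

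*OTC*, which joins carbamoyl phosphate to ornithine, followed *CPS1* in the order of the group means. It had 99.6, 308.6 and 289.8 CPM in the TN cows, 355.6, 365.5 and 289.3 CPM in the PF cows and 256, 401 and 554 CPM in the HS cows. Again TN replicate 1 was the lowest cow and HS replicate 3 the highest, and the other 7 cows lay between 256 and 401 CPM. The log2 fold change was 0.79 (SE 0.46, FDR 0.587) in HS vs. TN and 0.53 (SE 0.41, FDR 0.752) in PF vs. TN. Without TN replicate 1 these were 0.43 and 0.18. In HS vs. PF it was 0.26 (SE 0.32, FDR 1.00), with a 95% confidence interval from -0.44 to 0.95.

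*NAGS*, which makes the obligatory activator of *CPS1*, did not follow *CPS1* in the order of the group means. The correlation of their log2 CPM over the 9 cows was -0.18, and it was 0.40 without TN replicate 1. The levels of *NAGS* were 154, 102 and 73.1 CPM in the TN cows, 69.5, 81.0 and 88.3 CPM in the PF cows and 87.7, 124 and 134 CPM in the HS cows. TN replicate 1, the lowest cow for *CPS1* and *OTC*, was the highest for *NAGS*. The HS mean was above the PF mean, with a log2 fold change of 0.53 (SE 0.25, unadjusted p = 0.0561, FDR 0.948), and 2 of the 3 HS cows were above all PF cows. Against the TN group it was 0.05 (SE 0.33) in HS and -0.47 (SE 0.32) in PF cows. In ARS-UCD2.0 the gene overlaps *TMEM101*, whose log2 fold change of -0.32 in HS vs. PF had the opposite sign.

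*SLC25A15*, the carrier that exchanges ornithine for citrulline across the inner mitochondrial membrane, had 115, 155 and 180 CPM in the TN cows, 155.5, 73.8 and 80.2 CPM in the PF cows and 144, 143 and 239 CPM in the HS cows. PF replicates 2 and 3 were the lowest of all 9 cows, and PF replicate 1 lay among the HS and TN cows. In HS vs. PF the log2 fold change was 0.76 (SE 0.34, unadjusted p = 0.04998, FDR 0.938). It was -0.54 (SE 0.35, FDR 0.722) in PF vs. TN and 0.21 (SE 0.31, FDR 0.829) in HS vs. TN. Without PF replicate 1 the values of the first 2 were 1.18 and -0.96.

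The cytosolic steps of the cycle did not move as a block. *ASS1*, which condenses citrulline with aspartate, had 722, 1563 and 1376 CPM in the TN cows, 1288, 1453 and 1349 CPM in the PF cows and 803, 1341 and 2148 CPM in the HS cows. The PF cows lay within a narrow range inside that of both other groups, with a coefficient of variation of 6.11%, against 36.2% in TN and 47.3% in HS cows. The log2 fold changes were 0.22 (SE 0.49) in HS vs. TN, 0.06 (SE 0.36) in HS vs. PF and 0.16 (SE 0.38) in PF vs. TN, with FDRs from 0.893 to 1.00. The sign in HS vs. TN turned to -0.20 without HS replicate 3.

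*ASL*, argininosuccinate lyase, was the member that most clearly set the TN group apart. It had 902.6, 806 and 913 CPM in TN replicates 1 to 3, 559, 466 and 497 CPM in the PF replicates and 284, 517 and 609 CPM in the HS replicates. Every TN cow was above every PF and HS cow, the PF and HS cows overlapped, and HS replicate 1 was the lowest of all. The TN mean was 874 ± 59.3 CPM, the PF mean 507 ± 47.7 CPM and the HS mean 470.0 ± 168 CPM (SD, n = 3). The log2 fold change was -0.91 (SE 0.38, unadjusted p = 0.0398, FDR 0.512) in HS vs. TN and -0.79 (SE 0.32, unadjusted p = 0.0314, FDR 0.708) in PF vs. TN, and both use the same TN cows. In HS vs. PF it was -0.12 (SE 0.32, FDR 1.00), with a 95% confidence interval from -0.82 to 0.59.

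Over the 13 alternatives of each comparison, the log2 fold change of *ASL* ranged from -1.14 to -0.65 in HS vs. TN and from -0.86 to -0.73 in PF vs. TN, and its FDR was never below 0.196 and 0.175. Other measures also separated the TN cows. Mitochondrial genes took 13.6% to 22.2% of the counts of TN cows, 6.90% to 7.79% of those of PF cows and 3.84% to 5.68% of those of HS cows. With those genes left out of the library sizes the log2 fold changes of *ASL* were -0.91 and -0.79. Of the red blood cell markers, *HBB* also separated the TN cows. The sum of *HBB*, *HBA*, *HBA1* and *ALAS2* was 3.40 to 22.3 CPM in the TN group, against 0 to 2.29 CPM with pair-feeding and 0.336 to 1.33 CPM with heat stress, and was mostly *HBB*. *HBA1* was at 0 in 8 of the 9 cows, and *HBA* was at 0 in all TN cows. Of the 5 lymphocyte markers, 1 also separated the TN cows. This was *PTPRC*, with 58.2 to 63.2 CPM in the TN group. It had 39.1 to 52.4 CPM in the PF group and 45.8 to 53.9 CPM in the HS group. The part of the mitochondrial share and of these markers in the *ASL* difference was not tested. In bulk tissue fewer cells of a type and less RNA per cell cannot be told apart. *ASL* overlaps *CRCP* in ARS-UCD2.0, and the mean of *CRCP* was 28.7, 20.7 and 22.7 CPM in TN, PF and HS cows, with log2 fold changes of -0.35 in HS vs. TN and -0.47 in PF vs. TN.

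*ARG1*, arginase, had its lowest mean in the PF group. It had 241, 699 and 609 CPM in the TN cows, 371, 340.0 and 183 CPM in the PF cows and 271, 373 and 901 CPM in the HS cows. PF replicate 3 was the lowest cow and HS replicate 3 the highest, and TN replicate 1 lay among the PF cows. The log2 fold change was -0.79 (SE 0.44, unadjusted p = 0.0991, FDR 0.709) in PF vs. TN and 0.78 (SE 0.45, unadjusted p = 0.107, FDR 0.988) in HS vs. PF. Leaving out TN replicate 1 gave -1.13 for the former, and leaving out HS replicate 3 gave 0.11 for the latter. In HS vs. TN it was -0.01 (SE 0.54), with a 95% confidence interval from -1.22 to 1.19, and its sign changed with the normalization.

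Among the genes that release or bind ammonia through glutamine and glutamate, *GLS2* separated the HS and PF groups. It had 125, 101 and 53.4 CPM in TN replicates 1 to 3, 52.4, 48.1 and 62.0 CPM in the PF replicates and 91.5, 121 and 109 CPM in the HS replicates. All HS cows were above all PF cows, and the TN cows spanned both, with TN replicate 3 at the PF level and TN replicates 1 and 2 at the HS level. The HS mean was 107 ± 14.8 CPM, the PF mean 54.2 ± 7.11 CPM and the TN mean 93.1 ± 36.4 CPM (SD, n = 3). In HS vs. PF the fold change was 1.97, or 0.98 on the log2 scale (SE 0.23, 95% CI 0.47 to 1.49, unadjusted p = 0.00144, FDR 0.350). By unadjusted p it was number 58 of the 14510 genes tested. DESeq2 gave the same log2 fold change of 0.98 with an FDR of 0.0200, and over all 13 alternatives the log2 fold change ranged from 0.88 to 1.08 and the FDR from 0.0200 to 0.849.

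In PF vs. TN *GLS2* had a log2 fold change of -0.79 (SE 0.33, unadjusted p = 0.0354, FDR 0.708), which was -0.51 without TN replicate 1 and -1.06 without TN replicate 3. In HS vs. TN it was 0.18 (SE 0.33, FDR 0.865), with a 95% confidence interval from -0.56 to 0.92. Both differences from the PF group use the same PF cows. *GLS2* overlaps *SPRYD4* in ARS-UCD2.0, whose means were 24.4, 38.6 and 34.0 CPM in TN, PF and HS cows. Its log2 fold change in HS vs. PF was -0.19, against 0.46 in HS vs. TN and 0.66 in PF vs. TN. Its part in the *GLS2* values was not tested.

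Of the cell type marker lists, macrophage markers were placed beside *GLS2* in HS vs. PF after the values of the lists were seen. By edgeR 0 tested markers of endothelium, stellate cells, cholangiocytes, lymphocytes or red blood cells had an unadjusted p under 0.05 there. The HS mean exceeded the PF mean in all 6 Kupffer cell and macrophage markers (log2 fold changes from 0.43 to 1.31). With edgeR 5 of them had an unadjusted p under 0.05, where 5.32% of all genes did. These were *CD68*, *CD163*, *MARCO*, *CSF1R* and *CD5L*, which are named here after their values were seen. In HS vs. TN DESeq2 called *MARCO* (log2 fold change 1.48, FDR 0.0119) and edgeR called 0 of the 6 markers. In HS vs. PF 0 of these 6 markers were DEGs by edgeR and 0 by DESeq2. Their summed level ranged from 886 to 1688 CPM with heat stress, from 366 to 845 CPM with pair-feeding and from 580 to 1242 CPM in thermoneutrality, and all 6 had more than 3 counts in every cow. Within each group the cow with the highest *GLS2* had the lowest summed level. These cows were TN replicate 1, PF replicate 3 and HS replicate 2. The part of the 6 markers in the *GLS2* difference was not tested. The 8 hepatocyte markers had a median log2 fold change of 0.02 in HS vs. PF and 0 had an unadjusted p under 0.05.

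*GLUD1*, glutamate dehydrogenase, had its highest mean in the PF group. It had 320, 1383 and 929 CPM in the TN cows, 1478, 1795 and 714 CPM in the PF cows and 668, 673 and 1311 CPM in the HS cows. PF replicates 1 and 2 were the highest of the 9 cows, TN replicate 1 was the lowest, and the groups overlapped throughout. The log2 fold change was 0.60 (SE 0.53, FDR 0.774) in PF vs. TN, -0.59 (SE 0.41, FDR 1.00) in HS vs. PF and 0.00 (SE 0.54, FDR 0.998) in HS vs. TN. Without TN replicate 1 the PF vs. TN value was 0.21. *GLUD1* overlaps *SHLD2* in ARS-UCD2.0, whose log2 fold changes were -0.20, -0.26 and -0.47 in these comparisons.

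*GLUL*, glutamine synthetase, had similar means in the 3 groups but a wide range under heat stress. It had 202, 264 and 249 CPM in the TN cows, 205, 232 and 202 CPM in the PF cows and 342, 132 and 246 CPM in the HS cows. The highest and the lowest of the 9 cows were HS replicates 1 and 2. The coefficient of variation was 43.9% for HS, 13.4% for TN and 7.70% for PF cows. The log2 fold changes were 0.00 (SE 0.37, 95% CI -0.83 to 0.82) in HS vs. TN, 0.17 (SE 0.33, 95% CI -0.57 to 0.90) in HS vs. PF and -0.16 (SE 0.29, 95% CI -0.80 to 0.48) in PF vs. TN.

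Across the 9 libraries the members did not share a single profile, and the highest correlations followed the order of the pathway only in part. Pearson correlations of log2 CPM are given here as a description of 9 libraries that share their depth and tissue makeup. *OTC* had r = 0.85 with *ASS1* and r = 0.84 with *CPS1*, and *CPS1* and *ASS1* had r = 0.74. Without TN replicate 1 these were 0.78, 0.69 and 0.54. *GLS2* and *NAGS* had the highest correlation of all 45 pairs, r = 0.90, which was 0.88 without TN replicate 1. *SLC25A15* had r = 0.77 with *ARG1* and *GLUD1* had r = 0.77 with *OTC*, and without TN replicate 1 the former was 0.78 and the latter 0.40. *NAGS* and *CPS1* had r = -0.18, which was 0.40 without TN replicate 1, so the sign of that relation rested on 1 library. The correlations of *GLUL* with the other members lay between -0.31 and 0.22.

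**Figure D3:**
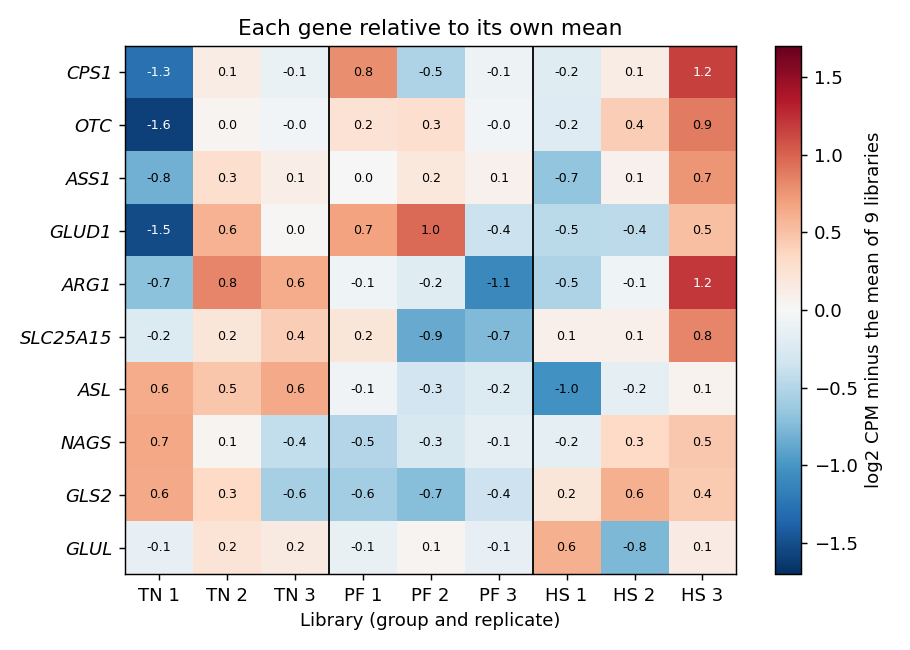
Log2 CPM of each gene (rows) in each library (columns) minus the gene's mean over the 9 libraries, from blue (below the mean) to red (above), with the difference printed in each cell. TN replicate 1 is the lowest column for *CPS1*, *OTC*, *ASS1* and *GLUD1* and the highest for *NAGS* and *GLS2*, HS replicate 3 is at or above the mean in all 10 rows, and *ASL* is above its mean in all 3 TN cows.

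Ratios of 2 members within a library do not depend on how the library was scaled and were described without a test. The log2 ratio of *ASS1* to *ASL* counts was -0.32, 0.96 and 0.59 in the TN cows, 1.203, 1.64 and 1.44 in the PF cows and 1.499, 1.38 and 1.82 in the HS cows. All 6 PF and HS cows were above all TN cows, the PF and HS cows overlapped, and the means were 0.41 ± 0.66, 1.43 ± 0.22 and 1.56 ± 0.23 (SD, n = 3). The log2 ratio of *SLC25A15* to *OTC* was 0.21, -0.99 and -0.68 in the TN cows, -1.19, -2.31 and -1.85 in the PF cows and -0.83, -1.49 and -1.21 in the HS cows. Every PF cow was below every TN cow, and the HS cows overlapped both groups.

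Ratios that set urea synthesis against glutamine use and synthesis overlapped between the groups. The mean log2 ratio of *CPS1* to *GLUL* was 2.36 ± 0.55 for TN, 2.99 ± 0.75 for PF and 3.23 ± 1.03 for HS cows (SD, n = 3), and the lowest HS cow, at 2.04, was below 2 of the 3 TN cows. The log2 ratio of *GLS2* to *GLUL* was -1.43 ± 0.76, -1.98 ± 0.28 and -1.07 ± 0.90 in these groups. The log2 ratio of *NAGS* to *CPS1* was -2.12 in TN replicate 1 and between -5.33 and -3.79 in the other 8 cows. This ratio also overlapped between every pair of groups.

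The genes around the cycle were examined as 71 further genes in 7 lists, covering its partners, the release and transfer of amino nitrogen, transport, regulators, the polyamine and orotate branches, and markers of the periportal and pericentral zones. By edgeR 0 of the 65 tested in HS vs. TN, 0 of 65 in HS vs. PF and 0 of 66 in PF vs. TN were DEGs, and 9, 5 and 9 had an unadjusted p under 0.05, or 13.8%, 7.69% and 13.6% of them, where 9.36%, 5.32% and 6.88% of all genes did. Each single list holds few genes, so its counts are to be read beside those shares. DESeq2 called *SLC7A2*, *CDH1* and *AXIN2* in HS vs. TN, *GLDC* and *SLC7A2* in HS vs. PF and 0 of these genes in PF vs. TN, where it called 1.75%, 0.771% and 0.555% of all genes. The urea transporters *SLC14A1* and *SLC14A2*, the ammonia channel *RHCG*, the glutamine transporter *SLC38A5* and the ornithine carrier *SLC25A2* had too few counts to be tested in any comparison, and the mitochondrial carbonic anhydrase *CA5B* in the 2 comparisons with the HS group.

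Among the 7 tested partners of the cycle, 1 had an unadjusted p under 0.05 in HS vs. TN and 2 in HS vs. PF, and among the 8 tested in PF vs. TN 0 did. *ARG2*, the mitochondrial arginase, had 4.07, 3.77 and 2.98 CPM in the TN cows, 1.95, 1.45 and 2.55 CPM in the PF cows and 3.47, 3.56 and 4.44 CPM in the HS cows. Every PF cow was below every other cow, and the log2 fold change in HS vs. PF was 0.94 (SE 0.42, unadjusted p = 0.0472, FDR 0.923).

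Of the 10 genes of amino nitrogen transfer and ammonia release, 1 had an unadjusted p under 0.05 in HS vs. TN, 1 in HS vs. PF and 2 in PF vs. TN. *GLDC*, the decarboxylase of the glycine cleavage system, which frees ammonia from glycine, had 213, 85.6 and 182 CPM in the TN cows, 89.9, 54.0 and 61.4 CPM in the PF cows and 172, 140.4 and 162 CPM in the HS cows. All HS cows were above all PF cows, with TN replicate 2 near the PF level, and the log2 fold change in HS vs. PF was 1.202 (SE 0.26, unadjusted p = 0.000861, FDR 0.315). In *GLDC*, as in *GLS2*, the HS and TN means were close and the PF mean was the lowest.

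Of the 10 tested transport genes, 2 had an unadjusted p under 0.05 in HS vs. TN, 1 in HS vs. PF and 2 in PF vs. TN. *SLC7A2*, a carrier of arginine, ornithine and lysine, had 79.3, 52.1 and 38.7 CPM in the TN cows, 61.4, 76.8 and 47.8 CPM in the PF cows and 104, 122 and 129 CPM in the HS cows. Every HS cow was above every other cow, with log2 fold changes of 1.04 (SE 0.30, unadjusted p = 0.00692, FDR 0.392) in HS vs. TN and 0.93 (SE 0.25, unadjusted p = 0.00348, FDR 0.504) in HS vs. PF. *RHBG*, an ammonia channel of pericentral hepatocytes, had 89.2, 49.6 and 62.1 CPM in the TN cows, 25.7, 48.4 and 40.3 CPM in the PF cows and 25.3, 19.2 and 51.5 CPM in the HS cows. All PF cows were below all TN cows, as were 2 of the 3 HS cows, and the log2 fold change in PF vs. TN was -0.82 (SE 0.32, unadjusted p = 0.0245, FDR 0.708). *AQP3*, a water and glycerol channel, ranged from 1.05 to 2.77 CPM in the TN group and from 0.447 to 0.764 CPM in the PF group. In the HS group it ranged from 0.643 to 1.01 CPM, so all PF and HS cows were below all TN cows. Its counts were low, from 8 to 62 per library. The log2 fold change of *AQP3* in PF vs. TN was -1.70 (SE 0.71, unadjusted p = 0.0353, FDR 0.708).

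**Figure D4:**
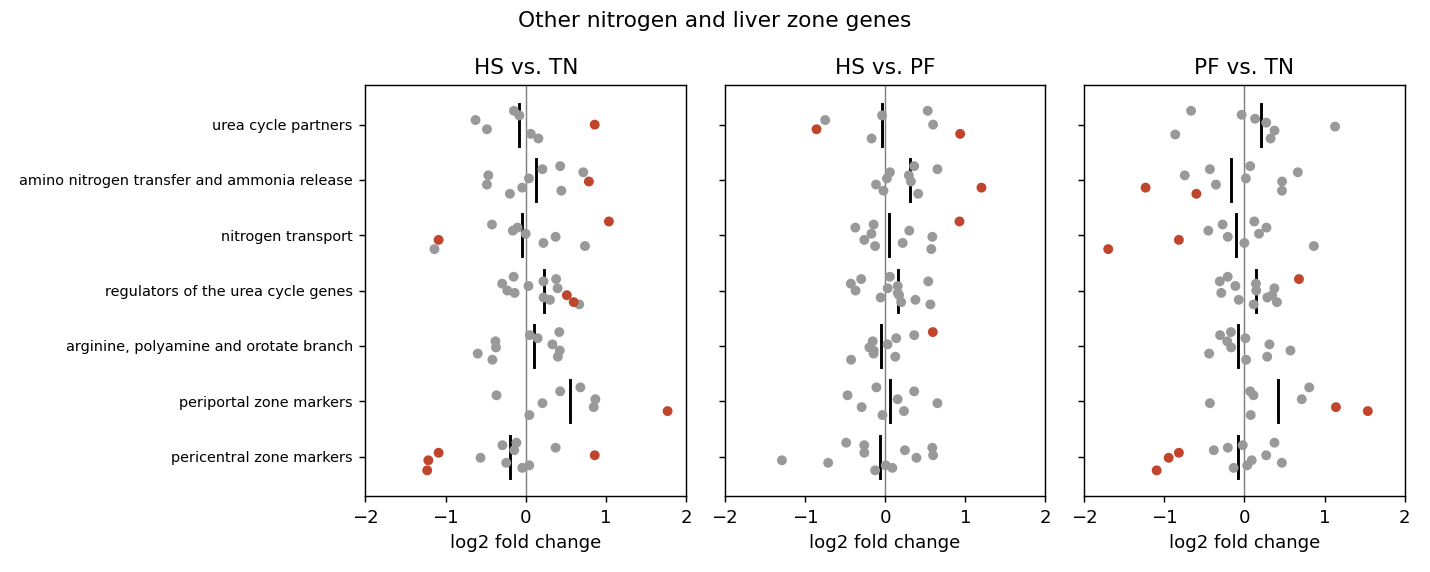
Log2 fold change (x axis) of the genes in the 7 lists around the urea cycle (rows, a gene may stand in more than 1 list) in the 3 comparisons; each point is a gene, red points had an unadjusted p under 0.05, and the black line is the median of the list. The list medians lie between -0.19 and 0.56, and no point passed the FDR threshold in edgeR.

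Of the 13 regulators, 2 had an unadjusted p under 0.05 in HS vs. TN, 0 in HS vs. PF and 1 in PF vs. TN. *CEBPB*, a transcription factor of the C/EBP family, ranged from 39.2 to 47.3 CPM in the TN group and from 59.2 to 74.2 CPM in the HS group, and its log2 fold change was 0.60 (SE 0.21, unadjusted p = 0.0171, FDR 0.458). PF replicate 1 had 19.5 CPM of *CEBPB* and the other PF cows 79.7 and 75.3 CPM. *FOXO3*, a forkhead factor, ranged from 36.5 to 47.7 CPM in the TN group and from 52.2 to 68.2 CPM in the HS group, and its log2 fold change was 0.51 (SE 0.21, unadjusted p = 0.0388, FDR 0.509). *SIRT3*, a mitochondrial deacetylase, ranged from 15.5 to 32.0 CPM in the TN group and from 35.7 to 47.7 CPM in the PF group, and its log2 fold change was 0.68 (SE 0.30, unadjusted p = 0.0415, FDR 0.708). Of the 10 genes of the arginine, polyamine and orotate branch, 1 had an unadjusted p under 0.05, in HS vs. PF. This was *UMPS*, which makes uridine monophosphate from orotate, which ranged from 18.9 to 29.2 CPM in the HS group and from 15.7 to 18.1 CPM in the PF group, and its log2 fold change was 0.60 (SE 0.24, unadjusted p = 0.0289, FDR 0.847).

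Because urea and glutamine synthesis are separated along the liver lobule, zone markers were placed beside them. The 8 periportal markers had a median log2 fold change of 0.56 in HS vs. TN, 0.41 in PF vs. TN and 0.06 in HS vs. PF, and 1, 2 and 0 of them had an unadjusted p under 0.05. The medians of the 8 general hepatocyte markers in these comparisons were 0.76, 0.77 and 0.02. *CDH1*, which encodes E-cadherin, ranged from 0.849 to 2.32 CPM in the TN group, from 4.79 to 5.64 CPM in the PF group and from 3.97 to 9.59 CPM in the HS group. Its log2 fold changes were 1.54 (SE 0.47, unadjusted p = 0.00743, FDR 0.693) in PF vs. TN and 1.77 (SE 0.51, unadjusted p = 0.00619, FDR 0.392) in HS vs. TN. *FBP1*, an enzyme of gluconeogenesis, ranged from 76.3 to 319 CPM in the TN group and from 392 to 530.1 CPM in the PF group, and its log2 fold change was 1.14 (SE 0.46, unadjusted p = 0.0312, FDR 0.708). *SDS* and *HAL*, which free ammonia from serine and histidine, and *PCK1*, an enzyme of gluconeogenesis, overlapped between the groups in each comparison. Their log2 fold changes in HS vs. TN were 0.43 (SE 0.28), 0.21 (SE 0.29) and -0.36 (SE 0.38), with FDRs from 0.626 to 0.815.

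The 12 pericentral markers had medians of -0.19, -0.08 and -0.06 in HS vs. TN, PF vs. TN and HS vs. PF, and 4, 3 and 0 of them had an unadjusted p under 0.05. Of the 4 in HS vs. TN 3 were lower and 1 was higher, and all 3 in PF vs. TN were lower. The list did not move as a block, with higher means in 3, 5 and 6 of the 12 markers in these comparisons. *AXIN2*, a feedback target of Wnt signaling, ranged from 9.30 to 12.1 CPM in the TN group, from 3.18 to 6.06 CPM in the PF group and from 3.39 to 5.38 CPM in the HS group. All TN cows were above all other cows, as for *ASL*, with log2 fold changes of -1.23 (SE 0.29, unadjusted p = 0.00191, FDR 0.282) in HS vs. TN and -1.09 (SE 0.33, unadjusted p = 0.00705, FDR 0.693) in PF vs. TN. *NOTUM*, a Wnt inhibitor, ranged from 59.2 to 84.7 CPM in the TN group and from 28.3 to 41.4 CPM in the PF group, and its log2 fold change was -0.94 (SE 0.27, unadjusted p = 0.00449, FDR 0.693). *CYP2E1*, a cytochrome P450, had log2 fold changes of -0.24 (SE 0.53), 0.47 (SE 0.44) and -0.71 (SE 0.38) in HS vs. TN, PF vs. TN and HS vs. PF. *SLC1A2*, a glutamate transporter of the same cells as *GLUL*, had 112, 46.9 and 18.3 CPM in the HS cows and 31.8 to 56.0 CPM in all other cows. HS replicate 1 was therefore the highest cow in both *SLC1A2* and *GLUL*.

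The genes most like *CPS1*, *GLS2*, *NAGS* and *GLUL*, the 4 members examined in this way, across the 9 libraries were taken from 13556 genes with a mean of at least 1 CPM, by Pearson correlation of log2 CPM. For *CPS1* they were *ABCD3* (r = 0.99), *CYP4V2* (r = 0.97) and *RAB40B* (r = 0.97), and the lowest of these with any 1 library left out was 0.938. For *GLS2* they were *LOC107133234* (r = 0.93), *IRF3* (r = 0.92) and *TLE4* (r = 0.92), and for *NAGS* they were *C7H19orf57* (r = 0.96), *PNPLA6* (r = 0.93) and *NCR3* (r = 0.93). With 1 library left out the lowest of these was 0.908 for *GLS2* and 0.893 for *NAGS*. For *GLUL* they were *ACTR1A* (r = 0.91), *C5AR2* (r = 0.89) and *CS* (r = 0.87), whose correlations fell as low as 0.85, 0.73 and 0.78 with 1 library left out.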

How the data were processed

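Poly(A) RNA of 9 liver biopsies was sequenced as paired-end reads. The deposited values are raw read counts per gene, made by the authors with fastp 0.23.2, STAR 2.7.9a (ARS-UCD1.2) and featureCounts 2.0.3 without normalization. The annotation release and the strand and multi-mapping settings are not given in the sources used here, so reads of overlapping genes may not be separated. All 9 columns were used.

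Since the study compared pairs of groups, the 6 libraries of a pair were fitted together by edgeR (version 4.0.16, under R 4.3.3) with TMM, filterByExpr, the quasi-likelihood F test and Benjamini-Hochberg adjustment over all genes tested. The SE is the log2 fold change over the root of F, and 95% intervals use the t distribution of the fit. CPM are TMM-normalized over all 9 libraries, and log2 CPM had an offset of 0.5. The study's DESeq2 (1.42.0) was an alternative. Others were RLE size factors, mitochondrial genes left out, no filter, at least 10 counts in every library, all 9 libraries in 1 fit, a replicate block, an FDR under 0.05, glmTreat, and each cow left out. The fits were tested on simulated counts.

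The members and lists were chosen with earlier results of these data known. All members were named. Other listed genes were named with an unadjusted p under 0.05 and no overlap, and 5 zone markers (*SDS*, *HAL*, *PCK1*, *CYP2E1*, *SLC1A2*) were named whatever their values. Marker lists of other cells are given by counts, except for markers named after their values were seen. *CRCP*, *TMEM101*, *SPRYD4* and *SHLD2* were named as overlapping members in RefSeq's ARS-UCD2.0 annotation, which held all 10 members and is a later assembly, so no positions are given. P-values set a group difference against the spread between these cows, 3 per group, which edgeR moderates over all genes tested. Counts carry no molecular identifiers.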

Additional observations from a re-analysis of the deposited data

How the results depend on the processing

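The lowest count of a member was 861, so counting error was small beside the spread between cows. Of 390 member log2 fold changes recomputed under the alternatives, 359 kept their direction and their side of the threshold, 30 changed sign and 1 passed it, *GLS2* in HS vs. PF with DESeq2, so that DESeq2 called 1 member there. In 17 of the 30 combinations of member and comparison no sign changed, and the cause of the changes was not tested.

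In HS vs. TN, *ARG1* turned to 0.023 with DESeq2, 0.016 with RLE size factors and 0.0021 with no filter, *GLUL* to 0.022, 0.014 and 0.014 under the same settings and to 0.0087 with all 9 libraries in 1 fit, and *GLUD1* to -0.0077 with at least 10 counts in every library. With 1 cow left out, the log2 fold changes ranged from -0.20 to 0.51 for *ASS1*, -0.69 to 0.30 for *ARG1*, -0.17 to 0.40 for *NAGS*, -0.083 to 0.36 for *SLC25A15*, -0.10 to 0.47 for *GLS2*, -0.40 to 0.50 for *GLUD1* and -0.35 to 0.29 for *GLUL*. In HS vs. PF they ranged from -0.19 to 0.77 for *CPS1*, -0.036 to 0.49 for *OTC*, -0.35 to 0.34 for *ASS1*, -0.34 to 0.14 for *ASL* and -0.19 to 0.46 for *GLUL*, and in PF vs. TN from -0.10 to 0.38 for *ASS1*.

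Replicate numbers are shared by the groups, but no pairing of cows by these numbers is stated in the sources used here. The PF intake was matched to that of the HS cows, and 3 cows per group cannot show whether cows were paired. The correlation of deviations from the group means for cows of the same number ranged from -0.220 to 0.251, and not every cow correlated best with its own number. With the replicate block, *ASS1* in HS vs. PF turned to -0.047, and the number of DEGs was 33 in HS vs. TN and 1 in PF vs. TN, with 0 members called in each comparison.

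The number of DEGs over all genes was 13 in HS vs. TN, 4 in HS vs. PF, 0 in PF vs. TN and 7 in the 3-group test. DESeq2 gave 270, 122, 91 and 291, and no filter gave 124, 98, 136 and 212. In HS vs. TN it was 4 with all 9 libraries in 1 fit, 0 at an FDR under 0.05 (1365 genes had an unadjusted p under 0.05) and 2 with glmTreat. In HS vs. PF it was 8 with RLE size factors and 8 with mitochondrial genes left out. In PF vs. TN it was 1 with at least 10 counts in every library. With 1 cow left out it ranged from 0 (without HS replicate 2, where 1131 genes had an unadjusted p under 0.05) to 39 (without TN replicate 2) in HS vs. TN, 5 to 10 in HS vs. PF, 0 to 14 in PF vs. TN and 2 to 47 in the 3-group test, and the number of members called stayed 0 in each of these fits. Without TN replicate 1, chosen after seeing the data, the groups did not overlap in 1 member in HS vs. TN and in 3 members in PF vs. TN, where 23.2% and 19.7% of all genes did not.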
